A study of Drosophila melanogaster with 12 samples.

Results

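Heads of adult cn bw flies were compared between the last normal night and the day that followed it without light. The arrays were chosen by their labelled collection times: ZT16, ZT20 and ZT24 for the first night, and CT4, CT8 and CT12 for the dark day, which makes 6 of the 12 arrays of the series. The flies carried the eye colour mutations cinnabar and brown in every group, and their age and sex are not given in the sources used here. They had been kept in a cycle of 12 h light and 12 h darkness, in which Zeitgeber time (ZT) counts hours from lights on. The next day was spent in constant darkness, and circadian time (CT) counts hours from the moment at which lights would have come on. The 6 arrays are therefore consecutive, 4 hours apart, with no return of light among them; the labels do not say how close to that moment the ZT24 flies were frozen. The other 6 arrays, ZT4 to ZT12 in light and CT16 to CT24 in the second dark night, served as a separate day and night. Each array held RNA of about 100 to 200 heads, and there was 1 array per time point. The 3 arrays of a group are different hours, so their standard deviation (SD) holds change with time as well as technical error, and nothing in the labels says that they came from separate cultures.

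The comparison asks which head transcripts differ between night and subjective day when no lights-on signal separates them. In the fly clock, CLK and CYC proteins drive the genes per, tim, vri and Pdp1. PER and TIM proteins build up during the night and shut down their own genes, and the block is lifted around dawn when the proteins are broken down. Light speeds this by destroying TIM through the photoreceptor protein CRY, but the loop also turns in darkness. Whole heads contain photoreceptors, neurons, glia, fat body and muscle, so a difference in a whole-head level can come from fewer cells of a type or from less RNA per cell, and these cannot be told apart.

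No gene was shown to differ between the first night and the dark day. All levels and differences below are RMA values on the log2 scale, and a difference is the dark day mean minus the first night mean. Of 10844 genes, 0 passed limma's test at an adjusted p of 0.05 (0.0% called), and the smallest adjusted p was 0.9994. An unadjusted p under 0.05 was reached by 118 genes (1.09%), 59 of them higher (0.544%) and 59 lower (0.544%) in the dark day. Without CT4 that count was 516 and without ZT20 it was 445, while it was 61 without ZT16 and 67 without CT8, and 0 genes passed the adjusted threshold in each of these fits. The groups did not overlap in 555 genes (5.12%): in 189 all 3 dark day arrays lay above all 3 night arrays (1.74%), and in 366 they all lay below (3.38%). With 3 arrays against 3, an exact 2-sided permutation test of a single gene cannot go below p = 0.1. The median standard error (SE) of a difference was 0.13. Differences of means reached 2-fold in 3 genes, Drsl5, stai and tim, and in the first 2 of these the groups did not overlap.

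**Figure D1:**
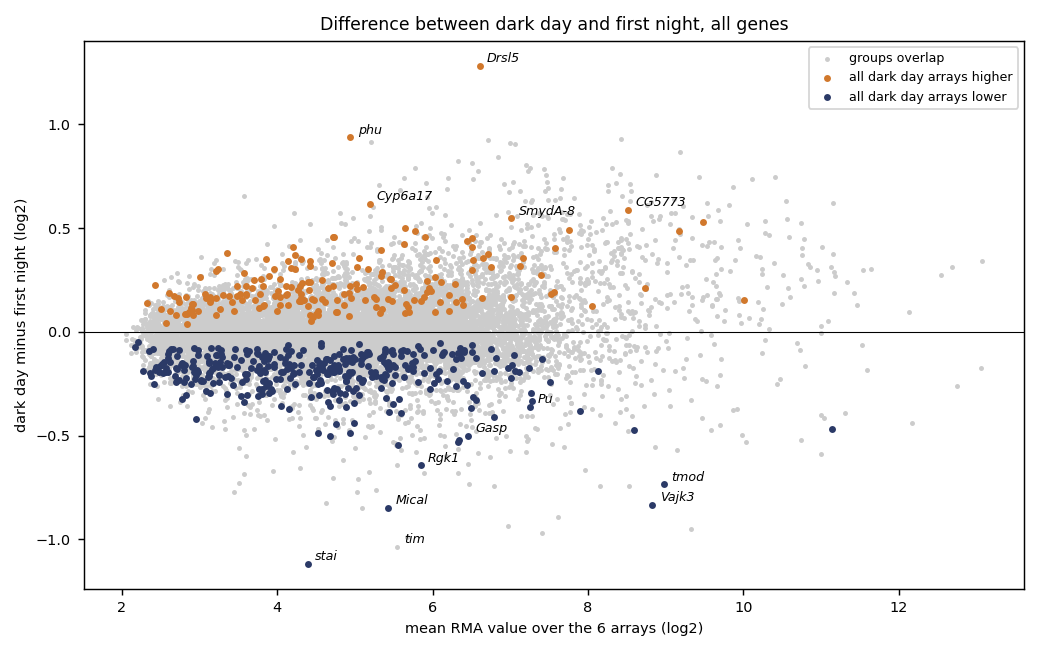
Dark day minus first night (log2, vertical axis) for each of 10844 genes against its mean RMA value over the 6 arrays (log2, horizontal axis). Orange points are the 189 genes with all dark day arrays higher, blue points the 366 with all lower, and grey points have overlapping groups; most differences lie close to 0 and none passed the adjusted threshold.

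Arrays within a group differed by as much as arrays of different groups. The SD over genes of the difference between 2 arrays ran from 0.20 to 0.46 in the 9 pairs of a night and a dark day array, from 0.29 to 0.39 within the night and from 0.35 to 0.42 within the dark day. The pair that spans the missing dawn, ZT24 and CT4, was among the most alike: 10 genes were at least 2-fold higher at CT4 (0.0922%) and 9 at least 2-fold lower (0.083%). From ZT16 to ZT20 the same counts were 208 (1.92%) and 99 (0.913%), from ZT20 to ZT24 230 (2.12%) and 127 (1.17%), from CT4 to CT8 219 (2.02%) and 198 (1.83%), and from CT8 to CT12 231 (2.13%) and 20 (0.184%). ZT16 and CT4, which lie 12 hours apart, differed at least 2-fold in 18 genes, the lowest count of the 15 pairs. The first principal component of the 6 arrays held 54.2% of the variation over genes and placed ZT16, ZT24 and CT4 on one side and ZT20, CT8 and CT12 on the other, while the difference between the group means held 14.3%. The former are the arrays with the largest 3' excess, which is how far probe sets at the 3' end of control genes read above those at the 5' end (log2), a sign of degraded RNA or incomplete labelling. It was 2.58 in ZT16, 3.32 in ZT24 and 2.88 in CT4, against 1.60 in ZT20, 2.02 in CT8 and 1.701 in CT12, so both groups held arrays of each kind, 2 against 1 in the night and 1 against 2 in the dark day. In a fit with the 3' excess as a covariate 0 genes passed and 130 were at an unadjusted p under 0.05. A fit without ZT16, ZT24 and CT4 sets ZT20 alone against CT8 and CT12. Values below from that fit therefore rest on ZT20 for the night, and it cannot separate RNA quality from that array. Beyond these fits the part of RNA quality was not tested.

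**Figure D2:**
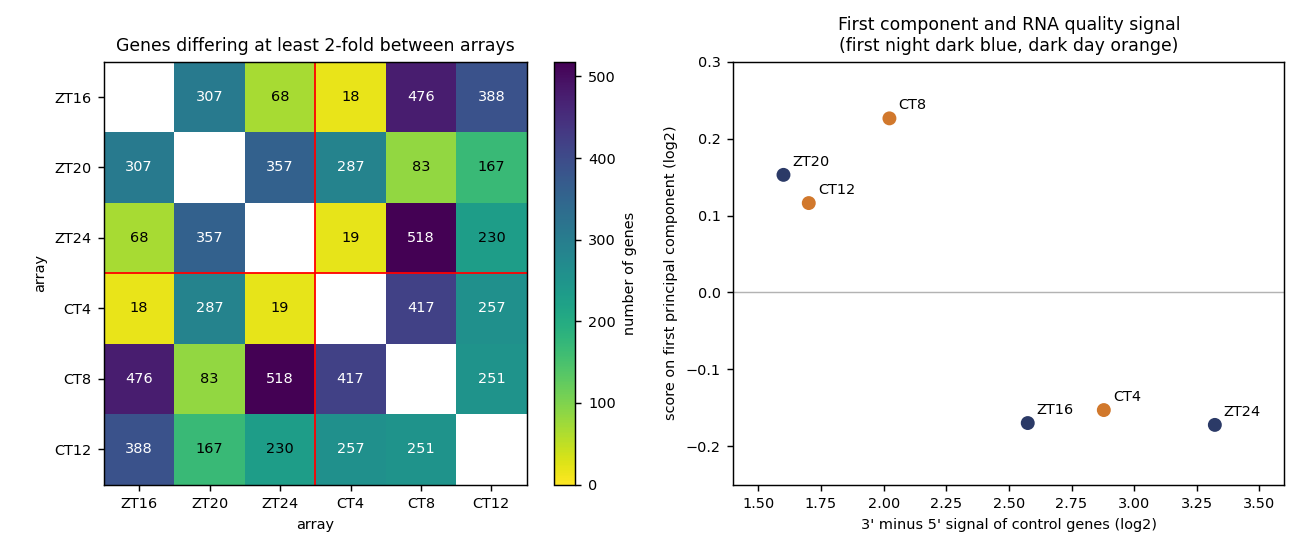
Left, the number of genes (colour and digits) that differ at least 2-fold between each pair of the 6 arrays, with red lines between first night and dark day; right, each array's score on the first principal component (log2) against its 3' excess in control genes (log2). ZT16, ZT24 and CT4 differ from each other in 18 to 68 genes and share one end of the component.

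Markers not found among the 10844 genes were left out, among them Syt1, Snap25, Syx1A and VAChT for neurons and the rhodopsin genes for photoreceptors. The other marker genes of the head's cell types mostly read at a mean level of at least 5 over the 12 arrays. This held for all 6 photoreceptor, 8 of 12 neuron, 10 of 14 glia, 13 of 15 head fat body and 15 of 19 muscle markers. It also held for 22 of 38 gut and 12 of 20 ovary markers, so this level does not by itself show a cell type. The mean level of the neuron markers ran from 5.66 to 5.86 in the night and from 5.17 to 5.94 in the dark day, with the lowest value in CT8, and that of the gut markers from 5.38 to 5.41 and from 5.24 to 5.72, with the highest in CT8. The testis and accessory gland markers, of which 7 of 28 reached a level of 5, ran from 3.84 to 3.98 in the night and from 3.76 to 4.13 in the dark day. The strain's own genes had small differences, -0.07 ± 0.10 (SE) for cn, an enzyme gene of the brown ommochrome pigments, and 0.06 ± 0.15 for bw, a transporter gene of the red pteridine pigments.

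Among the core clock genes the largest difference was that of tim, whose protein pairs with PER. It measured 6.34 at ZT16, 6.28 at ZT20 and 5.57 at ZT24, and 4.34 at CT4, 4.67 at CT8 and 6.08 at CT12. The transcript was high early in the night, lowest in the first dark morning and back near its night level at dusk, so the groups overlapped through CT12. Its mean was 6.06 ± 0.43 (SD, n = 3) in the night and 5.03 ± 0.92 in the dark day, a difference of -1.03 ± 0.46 (SE; unadjusted p = 0.0586, adjusted p = 0.9994, limma). The step from ZT24 to CT4 was -1.23, among the 3 largest downward steps of all genes across the missing dawn. Its other probe sets differed by -0.40 ± 0.38, with the lowest value, 4.10, also at CT4, and, near the floor of the array, by -0.07 ± 0.11.

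For vri, which encodes a repressor of Clk, both ends of the span were alike. It measured 6.79, 5.80 and 5.68 through the night and 5.32, 5.84 and 6.66 through the dark day. Both groups held a high array at the dusk end or soon after it, ZT16 and CT12, and lower arrays around dawn, and the means differed by -0.14 ± 0.41 (SE). The sign turned without ZT16, at 0.21, and without CT4, at 0.16. For Pdp1, whose protein activates Clk, the values were 6.06, 5.42 and 6.10 in the night and 5.78, 4.81 and 5.68 in the dark day, lowest in CT8, with a difference of -0.44 ± 0.30.

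The repressor gene per was at 6.12 at ZT16 and between 5.19 and 5.49 in the other 5 arrays. Its difference of -0.26 ± 0.23 rested on ZT16, without which it was 0.02. The light receptor gene cry measured 6.74, 7.31 and 6.82 in the night and 6.63, 7.83 and 7.66 in the dark day, a difference of 0.42 ± 0.33. Its 3 lowest values were in ZT16, ZT24 and CT4, the arrays of large 3' excess, and with that excess as a covariate the difference was 0.26. Clk itself stayed between 3.59 and 3.83 (-0.09 ± 0.10), and cyc, which encodes the partner of CLK, between 5.78 and 5.96 (0.01 ± 0.10). The Clk level was low, at percentile 24.4 of all genes, and whether so weak a signal follows the transcript was not tested. The repressor gene cwo was highest in ZT16 and CT4, at 5.49 and 5.45, and its means differed by 0.00 ± 0.15. Of the 8 core clock genes 3 were higher in the dark day and 5 lower; their median was -0.12 (0.01 without ZT16) against -0.01 over all genes, and the groups overlapped in all 8.

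**Figure D3:**
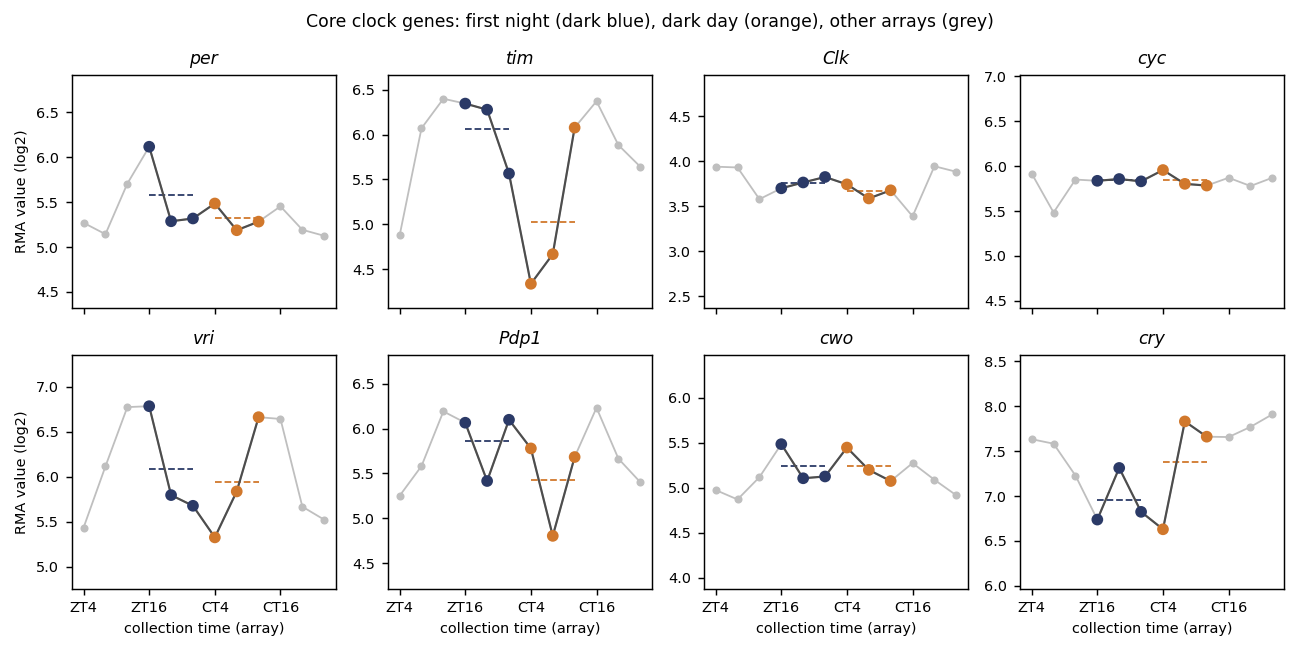
RMA values (log2, vertical axis, every panel spanning the same number of units) of the 8 core clock genes over the 12 collection times; dark blue points are the first night, orange points the dark day, dashed lines their means, and grey points the other 6 arrays. tim goes from 6.34 at ZT16 to 4.34 at CT4 and 6.08 at CT12, and vri is high in ZT16 and CT12 at opposite ends of the 2 groups.

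A mixed list of genes tied to the clock was lower in 14 of 16 members, with a median of -0.14. Beside the kinase gene dco it holds members as unlike as slmb, Usp8, tws, Atx2, kay and Dh31-R, so it does not stand for clock kinases. None had an unadjusted p under 0.05, and the list's median in CT8, relative to each gene's mean over the 6 arrays, was -0.29 while it lay between 0.01 and 0.11 in the other 5. Without CT8 6 of the 16 were higher and the median was -0.03. The groups did not overlap in 2 of the 16, both lower (3.38% of all genes): Dh31-R, the receptor gene of a wake-promoting peptide, and Ppt1, named because its values were seen. Dh31-R lay at 5.41 to 5.49 in the night and 5.28 to 5.31 in the dark day (-0.14 ± 0.09), but a second, dimmer probe set differed by 0.12 ± 0.11. Ppt1 (-0.09 ± 0.09) encodes a palmitoyl-protein thioesterase, neither a kinase nor a phosphatase. Of 25 genes reported earlier as oscillating in heads, a list that may rest in part on related arrays and is not independent, 14 were higher and 11 lower (median 0.02). In that list the cytochrome P450 gene Cyp6g1 differed by 0.91 ± 0.49, with its lowest value, 5.91, in ZT16 and its highest, 8.11, in CT12, and Cyp18a1, which inactivates the steroid hormone ecdysone, by -0.47 ± 0.26.

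The genes highest in the dark day relative to the night were led by Drsl5, a relative of the antifungal peptide gene Drosomycin. It measured 5.96, 5.85 and 6.09 through the night and 6.77, 6.94 and 8.04 through the dark day. All dark day arrays lay above the night, with CT12 far above the rest, and the means were 5.96 ± 0.12 and 7.25 ± 0.69 (SD, n = 3), a 2.43-fold difference (1.28 ± 0.32, SE; unadjusted p = 0.0053). The gene phu, known earlier as CG8147, measured 3.92, 4.69 and 4.82 and then 5.18, 5.43 and 5.63. Each of its arrays was higher than the one before, through the night as well as the day, and the difference was 0.94 ± 0.25 (1.92-fold). These genes, like all others named for this comparison, had an adjusted p of 0.9994.

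Several enzyme genes had small unadjusted p. Pcyt2, an enzyme gene of phosphatidylethanolamine synthesis, measured 5.25, 5.28 and 5.65 in the night and 5.74, 5.86 and 6.08 in the dark day (0.50 ± 0.15). Dolk, the dolichol kinase gene needed for N-glycosylation, measured 5.15, 5.19 and 5.07 and then 5.40, 5.53 and 5.68 (0.40 ± 0.11). Its night arrays lay close together, and its highest value came at CT12, the end of the subjective day. The beta-mannosidase gene beta-Man measured 6.39, 6.59 and 6.60 in the night and 6.86, 6.99 and 6.85 in the dark day (0.37 ± 0.11), and a weaker probe set of the same gene gave 0.00 ± 0.13. The lipid droplet gene sturkopf measured 6.14, 6.42 and 6.33 and then 6.52, 6.66 and 6.95 (0.41 ± 0.14). In sturkopf, as in phu and CG5773, ZT16 was the lowest array of the 6.

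Of the other genes in this group, Mgstl, a microsomal glutathione transferase gene, measured 8.98, 9.38 and 9.28 in the night and 9.49, 10.09 and 9.65 in the dark day (0.53 ± 0.19). Its 2 other probe sets had differences of 0.37 ± 0.28 and 0.50 ± 0.29, and all 3 were highest in CT8. The Hedgehog pathway gene shf, which encodes a secreted protein that helps Hedgehog spread, lay between 6.92 and 7.01 in the night and between 7.17 and 7.42 in the dark day (0.32 ± 0.10). The gene olf186-M lay between 5.36 and 5.53 and then between 5.75 and 5.98 (0.42 ± 0.11), and Osi2, of the Osiris family, between 5.66 and 6.01 and then between 6.17 and 6.27 (0.35 ± 0.12). For CG13428 the difference was 0.45 ± 0.15 and for CG5773 0.59 ± 0.20. Among the largest differences were also Cyp6a17, a cytochrome P450 gene known for its part in temperature preference, at 0.62 ± 0.26 although ZT24 and CT4 were nearly equal, and SmydA-8, of the SET and MYND domain family, at 0.55 ± 0.23 with CT8 far above the rest at 7.79.

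On the other side, the gene with the smallest p of all those named was Gasp, which encodes a chitin-binding protein. It measured 6.61, 6.79 and 6.71 through the night and 6.12, 6.29 and 6.19 through the dark day. The spread within each group was small, 6.70 ± 0.09 and 6.20 ± 0.08 (SD, n = 3), against a difference of -0.50 ± 0.10 (SE; unadjusted p = 0.0018). CG10512 measured 5.69, 5.71 and 6.09 and then 5.25, 5.35 and 5.26 (-0.54 ± 0.13). The fat body protein gene Fbp2 measured 5.71, 5.58 and 5.61 and then 5.17, 5.47 and 5.10 (-0.39 ± 0.13). The collagen-modifying lysyl hydroxylase gene Plod measured 5.67, 5.76 and 5.95 and then 5.35, 5.28 and 5.57 (-0.39 ± 0.13). In each of these 4 genes CT4, the first array after the missing dawn, was already lower than ZT24, by -0.44 in Fbp2 to -0.84 in CG10512.

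Level night values above the dark day were also seen in Pu and Pfas. Pu, which encodes GTP cyclohydrolase, the entry enzyme of pteridine and tetrahydrobiopterin synthesis, measured 7.43, 7.46 and 7.43 in the night and 7.06, 7.02 and 7.15 in the dark day. Its night arrays were almost equal, and the difference was -0.36 ± 0.09 (unadjusted p = 0.0057). Pfas, which encodes an enzyme of purine synthesis, measured 7.46, 7.42 and 7.45 and then 7.14, 7.21 and 6.98 (-0.33 ± 0.10). SppL, of the signal peptide peptidase family, lay between 5.69 and 5.78 in the night and between 5.31 and 5.46 in the dark day (-0.32 ± 0.10), and CG5853 between 5.14 and 5.22 and then between 4.54 and 4.94 (-0.49 ± 0.13). For CG17197 the difference was -0.32 ± 0.10, for CG9400 -0.52 ± 0.16 and for CG13044 -0.47 ± 0.15.

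Larger but more uneven differences were measured for stai, tmod, Mical, Vajk3 and Rgk1. The stathmin gene stai, which encodes a microtubule regulator, measured 5.05, 4.84 and 4.97 in the night and 4.35, 2.83 and 4.33 in the dark day, with CT8 far below the rest (-1.12 ± 0.40). The tropomodulin gene tmod, whose protein caps actin filaments, was likewise lowest in CT8, at 7.99 against 8.83 to 9.52 in the other 5 arrays (-0.73 ± 0.28). CT8 was also the array in which the neuron markers were lowest, and the part of that shift in these values was not tested. A second probe set of stai gave -0.15 ± 0.34, also lowest in CT8, at 3.325. Of 2 others of tmod, 1 gave -0.35 ± 0.33 and was lowest in CT8, at 5.047. The other gave 0.03 ± 0.13 and was not lowest there. The size of the difference thus varied between probe sets of each gene.

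Mical, which encodes an enzyme that takes actin filaments apart, measured 6.69, 5.68 and 5.21 in the night and 4.84, 5.16 and 5.03 in the dark day (-0.85 ± 0.35), and its 3 other probe sets gave -0.50 ± 0.17, -0.13 ± 0.15 and -0.01 ± 0.20. Vajk3, of a family of cuticle-linked proteins, measured 9.77, 9.16 and 8.80 and then 8.09, 8.75 and 8.40 (-0.83 ± 0.27), and the small GTPase gene Rgk1 6.64, 5.96 and 5.90 and then 5.42, 5.54 and 5.61 (-0.64 ± 0.20). In all 3 genes the highest array was ZT16 and values already went down within the night, before the passage to the dark day.

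**Figure D4:**
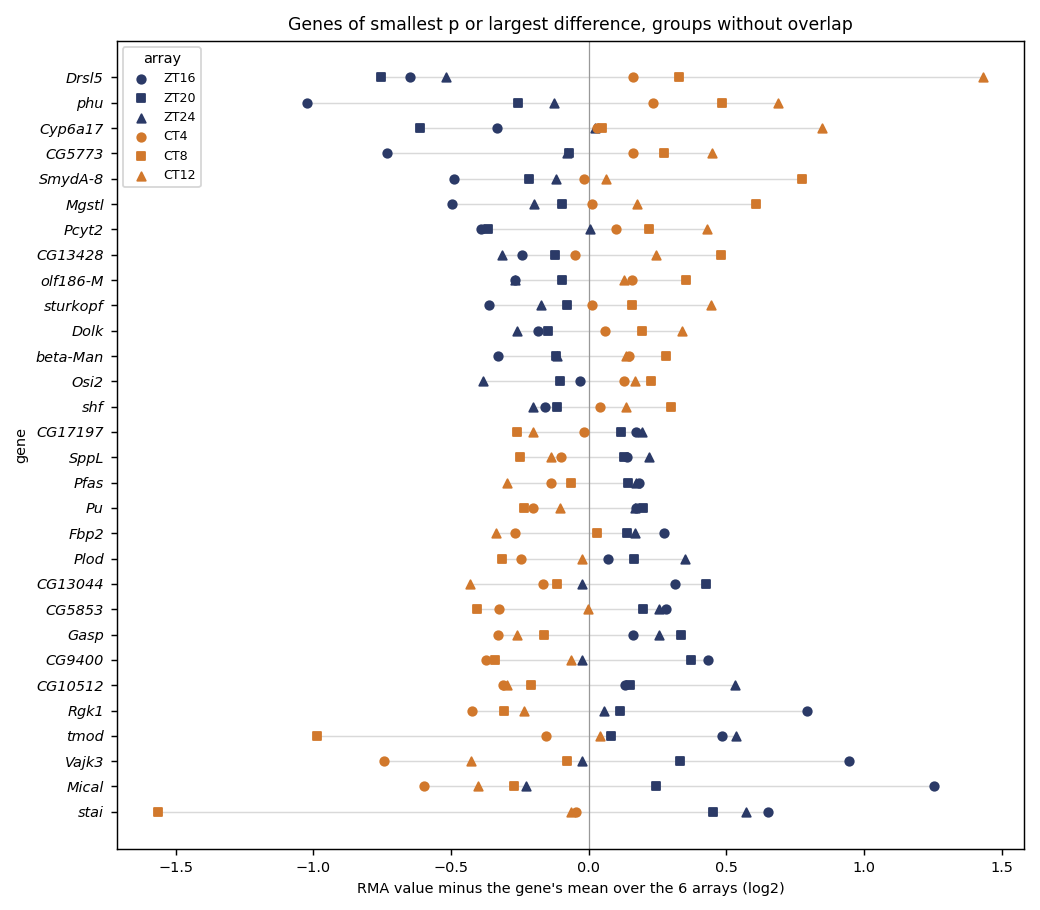
RMA values of the 30 genes named for their small p or large difference without overlap of the groups, each relative to the gene's mean over the 6 arrays (log2, horizontal axis); blue symbols are first night arrays, orange symbols dark day arrays, and the shape gives the array. Gasp, Pu and Pfas have tight groups, while the range of stai, tmod and Drsl5 is set by a single array.

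The step across the missing dawn, from ZT24 to CT4, rests on 1 array against 1 and carries no test. Its largest upward changes were those of CG10527, aspr and CG1648, at 1.85, 1.42 and 1.23. All 3 went down through the night, and from CT4 to CT12 the first 2 went down again while CG1648 did not. CG10527 measured 9.64, 8.46 and 7.51 in the night and 9.36, 8.89 and 8.61 in the dark day, aspr 9.77, 8.92 and 8.09 and then 9.52, 9.06 and 8.75, and CG1648 7.88, 6.95 and 6.05 and then 7.28, 7.45 and 7.47. Each was lowest in ZT24, and their groups overlapped, with differences of 0.42 ± 0.51, 0.18 ± 0.42 and 0.44 ± 0.42. The largest downward steps besides tim were those of CG8483, at -2.13, and of Lsp2, the gene of a storage protein of the fat body, at -1.21. CG8483 was at 8.69 in ZT24 and between 5.73 and 7.19 in the other 5 arrays. Lsp2 measured 9.57, 10.76 and 10.55 in the night and 9.34, 10.04 and 9.92 in the dark day (-0.53 ± 0.33).

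The other 6 arrays gave a day and a night that share no array with the first comparison, although there the day was lit and came before the night. Light day minus second night was -0.20 ± 0.17 (SE) for Pu, -0.26 ± 0.11 for Pfas, -0.25 ± 0.13 for CG5853 and -0.31 ± 0.15 for CG13044, the same sign as in the dark day comparison. It was 0.32 ± 0.13 for Gasp, 0.35 ± 0.14 for Fbp2, -0.44 ± 0.16 for Drsl5, -0.16 ± 0.09 for Dolk and -0.50 ± 0.26 for phu, the opposite sign. For tim it was -0.18 ± 0.37, since that gene is already at 6.07 at ZT8 and 6.40 at ZT12. Of the 189 genes with all dark day arrays higher, 77 had the same sign in the other arrays (40.7%), and of the 366 with all lower 129 did (35.2%), against 39.9% of all genes. Both groups of arrays were free of overlap in the same direction for 14 of the 555 genes (2.52%) and in opposite directions for 41 (7.39%). Of all 10844 genes, 369 (3.40%) were free of overlap in the other arrays on the side to which their first difference pointed, and 781 (7.20%) on the opposite side.

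The 14 include Pfas and, chosen here after their values were seen, su(r), the first enzyme gene of pyrimidine breakdown, the nucleoside transporter gene Ent2 and ry, the xanthine dehydrogenase gene. For su(r) the dark day minus first night was -0.31 ± 0.11 and light day minus second night -0.14 ± 0.09, for Ent2 -0.24 ± 0.09 and -0.29 ± 0.11, and for ry -0.15 ± 0.09 and -0.14 ± 0.10. These are descriptions, since the genes were picked for this pattern, and their share is no larger than that over all genes. In the second comparison 0 genes passed in limma (0.0%), where the smallest adjusted p was 0.1516, and 499 genes stood at an unadjusted p under 0.05 (4.6%). Its groups did not overlap in 1150 genes (10.6%), and 53.4% of all genes were higher in the light day. The difference between both comparisons, which by its construction also equals that of both later groups from both earlier groups, passed in 0 genes (0.0%). Its smallest adjusted p was 0.9142, and 435 genes stood at an unadjusted p under 0.05 (4.01%).

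Gene groups of protein synthesis had more members higher in the dark day than genes at large, of which 48.3% were higher, although none of their members passed. Here and in the other lists the members named are mostly those of smallest unadjusted p in this comparison, so they are not typical of a list. Levels were not matched: the median was 10.49 for cytosolic ribosomal proteins against 4.94 over all genes. The spread of levels also differed between arrays, with an SD of 1.55 in ZT16, 1.58 in ZT24 and 1.57 in CT4. It was 1.65 in ZT20, 1.66 in CT8 and 1.675 in CT12. Beyond quantile normalization again, the part of level and spread in the list counts was not tested. Cytosolic ribosomal proteins were higher in 29 of 31 genes (median 0.30). RpL32 measured 10.75, 11.09 and 11.23 in the night and 11.11, 11.51 and 11.31 in the dark day (0.29 ± 0.16), RpL36A differed by 0.41 ± 0.25, and RpL37A by 0.16 ± 0.10, or -0.03 with quantile normalization again. The list's median relative to each gene's mean was -0.46 in ZT16 and 0.34 in CT8. Its median difference was 0.18 without ZT16, 0.45 without CT4 and 0.14 with quantile normalization again (24 of 31 higher). Of 41 translation factor genes 33 were higher (median 0.15), among them eIF3f1 (0.56 ± 0.32) and eIF2A (0.30 ± 0.16), while the initiation factor gene eIF4G2 was at -0.42 ± 0.23. That median was 0.09 without ZT16, 0.27 without CT4 and 0.10 without ZT24. Of 66 mitochondrial ribosomal protein genes 50 were higher (median 0.11), with mRpL17 (0.29 ± 0.18), mRpL41 (0.21 ± 0.11) and mRpL50 (-0.18 ± 0.10) named for their small p. Without ZT16, ZT24 and CT4, which leaves ZT20 alone in the night, only 28 of the 66 were higher (median -0.03). The median was 0.03 without CT8, 0.05 without ZT24, 0.06 without ZT16 or CT12 and 0.21 without CT4 or ZT20. Aminoacyl-tRNA synthetases were higher in 9 of 15 genes (median 0.02) and ribosome biogenesis genes in 12 of 21 (0.02, and 0.11 without CT4 or 0.07 without ZT20).

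Energy metabolism followed the same arrays. Of 14 genes of the tricarboxylic acid (TCA) cycle 12 were higher, with a median of 0.34, and of 67 oxidative phosphorylation genes 56, with a median of 0.17. SdhC, a gene of the complex that belongs to both, measured 7.38, 8.42 and 7.80 in the night and 7.74, 8.92 and 8.39 in the dark day (0.48 ± 0.36). The complex I gene ND-75 measured 8.07, 8.86 and 7.82 and then 8.14, 9.25 and 8.93 (0.52 ± 0.36). In both, ZT20, CT8 and CT12 were the high arrays, so the groups overlapped. The TCA list's medians relative to each gene's mean were -0.50, 0.33 and -0.33 in the night and -0.38, 0.62 and 0.28 in the dark day, low in each array of large 3' excess. Without those arrays, which sets ZT20 alone against CT8 and CT12, 8 of 14 TCA genes were higher (median 0.02). The TCA median was 0.68 without CT4, 0.61 without ZT20, 0.23 without ZT24, 0.16 without CT12, 0.10 without ZT16 and 0.09 without CT8. With quantile normalization again it was 0.17 (11 of 14 higher). For oxidative phosphorylation the median was 0.10 without the arrays of large 3' excess, 0.30 without CT4, 0.25 without ZT20, 0.08 without ZT16 and 0.07 without CT8. With quantile normalization again it was 0.06 (41 of 67 higher).

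Glycolytic genes were higher in 13 of 18 (median 0.09), with the enolase gene Eno (0.61 ± 0.41), Pgk (0.68 ± 0.61) and the hexokinase gene Hex-A (-0.31 ± 0.32) named for their small p. Their median turned to -0.06 without ZT16 and was 0.32 without CT4, 0.31 without ZT20, 0.04 without CT12, 0.02 without CT8 and -0.01 with the 3' excess as a covariate. In the other 6 arrays these groups lay on the opposite side. The SD of levels was uneven there too, at 1.64, 1.65 and 1.56 in ZT4, ZT8 and ZT12. It was 1.63, 1.67 and 1.68 in CT16, CT20 and CT24, and the part of level and spread in this reversal was not tested. Light day minus second night had a median of -0.30 for the TCA cycle (0 of 14 higher), -0.24 for oxidative phosphorylation (13 of 67), -0.28 for glycolysis (1 of 18) and -0.10 for cytosolic ribosomal proteins (5 of 31).

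Genes of the light response were mostly higher in the dark day, 17 of 21 for phototransduction and its supply of chromophore, with a median of 0.24. The retinophilin gene rtp measured 8.23, 8.75 and 9.37 in the night and 9.17, 9.41 and 9.50 in the dark day (0.57 ± 0.28). The channel gene trpl measured 7.87, 8.62 and 8.26 and then 8.39, 8.62 and 8.93 (0.40 ± 0.22), and inaC, the eye protein kinase C gene, 5.58, 5.84 and 6.23 and then 6.20, 6.05 and 6.61 (0.40 ± 0.21). In all 3 ZT16 was lowest and CT12 highest, and the groups overlapped. The photoreceptor markers ninaE, Rh3, Rh4, Rh6, norpA and ninaC were not found among the genes, and neither list holds a rhodopsin gene. All 6 remaining photoreceptor markers, which are also members of that list and no separate set, were higher (median 0.37). Among them were the arrestin gene Arr2 (0.30 ± 0.22) and the scaffold gene inaD (0.52 ± 0.33). The median of the phototransduction list was 0.09 without ZT16 and 0.06 without CT12, and 0.07 with quantile normalization again. That of the photoreceptor markers was 0.09 without ZT16, 0.20 without CT12 and 0.60 without CT4. It was 0.23 with quantile normalization again and 0.26 with the 3' excess as a covariate, each with 5 of 6 higher. In the other 6 arrays the phototransduction median was -0.21 (3 of 21 higher), with trpl at 0.68.

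Detoxification genes were higher in 54 of 80 cytochrome P450 genes (median 0.05), 25 of 35 glutathione S-transferase genes (0.15) and 18 of 33 UDP-glycosyltransferase genes (0.01). Of the 80 P450 genes 6 had all dark day arrays higher (1.74% of all genes), Cyp9b1 (0.28 ± 0.12) and Cyp6a17 among them. In 1 P450 gene (3.38% of all genes), Cyp4s3 (-0.11 ± 0.09, named for that), they were all lower. Cyp6a22, at 0.27 ± 0.13, overlapped. GstD9 measured 5.90, 5.27 and 6.07 in the night and 6.31, 6.05 and 6.67 in the dark day (0.60 ± 0.25, unadjusted p = 0.0454), and GstZ2, the only member of its family whose groups did not overlap, lay between 5.27 and 5.41 and then between 5.47 and 5.64. Ugt35B1 differed by 0.79 ± 0.47 and Ugt49B1 by 0.72 ± 0.40, both with their lowest value in ZT20. A second probe set of Ugt35B1 gave -0.21 ± 0.36. The P450 median was 0.10 without CT4 and 0.08 without ZT16. For the transferases it was 0.25 without CT4, 0.08 without CT12 and 0.10 without CT8. Of 17 antioxidant and glutathione synthesis genes 11 were higher (0.10, from 0.05 without ZT16 to 0.17 without ZT20). Gclm, a subunit gene of the enzyme that limits glutathione synthesis, was named for its small p (0.27 ± 0.13).

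Immune genes pointed both ways. Antimicrobial and immune genes were lower in 13 of 18 (median -0.05), and that median was 0.04 without ZT24 and 0.16 without ZT16, ZT24 and CT4. Besides Drsl5, the receptor gene Tl measured 4.74, 4.75 and 5.28 in the night and 4.46, 4.22 and 4.59 in the dark day (-0.50 ± 0.18), and Drsl6 differed by -0.29 ± 0.12. The NF-kappaB gene Rel, named because its groups did not overlap, measured 4.10, 4.73 and 4.67 and then 4.81, 4.83 and 5.22 (0.46 ± 0.20). Fat body genes differed as unevenly, with 8 of 15 higher (median 0.09, and -0.06 without ZT16): the iron carrier gene Tsf1 measured 9.14, 8.90 and 8.74 in the night and 9.18, 9.77 and 9.28 in the dark day (0.49 ± 0.19), opposite to Fbp2. Of 34 genes of feeding and lipid metabolism 21 were higher (0.05, from 0.01 without ZT16 to 0.12 without ZT24). The citrate lyase gene ATPCL, at the start of fatty acid synthesis, lay between 7.16 and 7.33 in the night and between 7.43 and 7.62 in the dark day (0.28 ± 0.10), while the fat-mobilizing lipase gene bmm lay between 6.55 and 6.89 and then between 6.07 and 6.48 (-0.36 ± 0.15).

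Neuronal groups were lower in the dark day on average, and CT8 carried most of it. Of 16 synaptic vesicle and release genes 12 were lower (median -0.11), and of 12 neuron markers 8 (-0.10). Both lists hold nSyb, Syn, brp and VGlut, and the neuron markers share para and cac with the ion channel list. The synapsin gene Syn measured 4.23, 3.68 and 4.92 in the night and 4.41, 2.59 and 3.83 in the dark day (-0.67 ± 0.50), and the glutamate transporter gene VGlut 6.80, 6.34 and 7.47 and then 7.18, 5.44 and 6.24 (-0.58 ± 0.47). Without CT8 the medians were 0.06 and 0.05, with 11 of 16 and 8 of 12 genes higher. Ion channels were lower in 19 of 30 genes (-0.09, and 0.03 without CT8) and nuclear receptors in 15 of 20 (-0.07, and -0.02 without ZT16). Of 28 neuropeptide and receptor genes 20 were higher (0.06, and 0.03 without CT4 or CT12). Dh44, the gene of a peptide that carries clock output, measured 3.01, 3.37 and 3.11 and then 3.44, 3.58 and 3.61 (0.38 ± 0.13, unadjusted p = 0.0202, limma). Its level was low against the median of 4.94 over all genes, and whether so weak a signal follows the transcript was not tested. NPF, the other of 2 members without overlap (1.74% of all genes higher), differed by 0.08 ± 0.09. Among 12 genes of dopamine, serotonin and histamine metabolism 4 were higher (-0.08, and 0.04 without ZT24), with t, which recycles histamine and dopamine, at 0.81 ± 0.63 and Pu as above. Of 16 eye pigment and pteridine genes 10 were higher (0.07, and -0.04 without ZT16, ZT24 and CT4), with se, an enzyme gene of the red pteridines, at 0.72 ± 0.41. Of 14 activity-regulated genes 8 were higher (0.01), with Arc1 at 0.46 ± 0.32 and sr at -0.36 ± 0.26.

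Genes of smell, taste and cuticle had medians near 0. Odorant and gustatory receptors were lower in 56 of 81 genes, with a median of -0.05, and 4 had all dark day arrays lower, a share near the 3.38% of all genes: Or88a (-0.34 ± 0.12), Or45b (-0.20 ± 0.09) and, named for this after their values were seen, Or1a (-0.30 ± 0.17) and Or67b (-0.18 ± 0.10). Or69a, at -0.36 ± 0.13, overlapped at ZT20 and CT4. Only 14 of the 81 reached a mean level of 5, and the median was -0.02 without ZT16, 0.00 without CT12 and -0.10 without CT4. Odorant-binding proteins were higher in 23 of 37 genes (0.01), with Obp56e, at 9.46, 9.85 and 10.14 in the night and 9.15, 9.16 and 9.72 in the dark day, differing by -0.48 ± 0.22. Cuticle proteins were higher in 38 of 93 (-0.02), with Cpr72Ec (0.35 ± 0.14) and Cpr11A (0.35 ± 0.12) above and Cpr23B (-0.28 ± 0.11) below.

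The remaining lists had medians close to that of all genes: proteasome 0.06 (28 of 39 higher), heat shock and chaperones 0.06 (9 of 14), cytosolic chaperonin 0.05 (5 of 8), vacuolar ATPase 0.02 (16 of 29), splicing and RNA processing 0.01 (13 of 24), autophagy 0.00 (11 of 22), and markers of gut 0.03 (26 of 38), glia 0.01 (8 of 14), ovary 0.00 (10 of 20), testis and accessory gland 0.00 (14 of 28), haemocytes -0.04 (8 of 17) and muscle -0.06 (9 of 19). The muscle median was -0.0022 without ZT20 or CT4 and -0.0007 without ZT24. In each of the other lists of this paragraph the sign of the median turned when 1 or 3 of the arrays were left out, as it did for the cuticle, odorant-binding, UDP-glycosyltransferase, aminoacyl-tRNA synthetase, activity-regulated and head oscillator lists. In each of the 43 lists 0 genes passed.

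**Figure D5:**
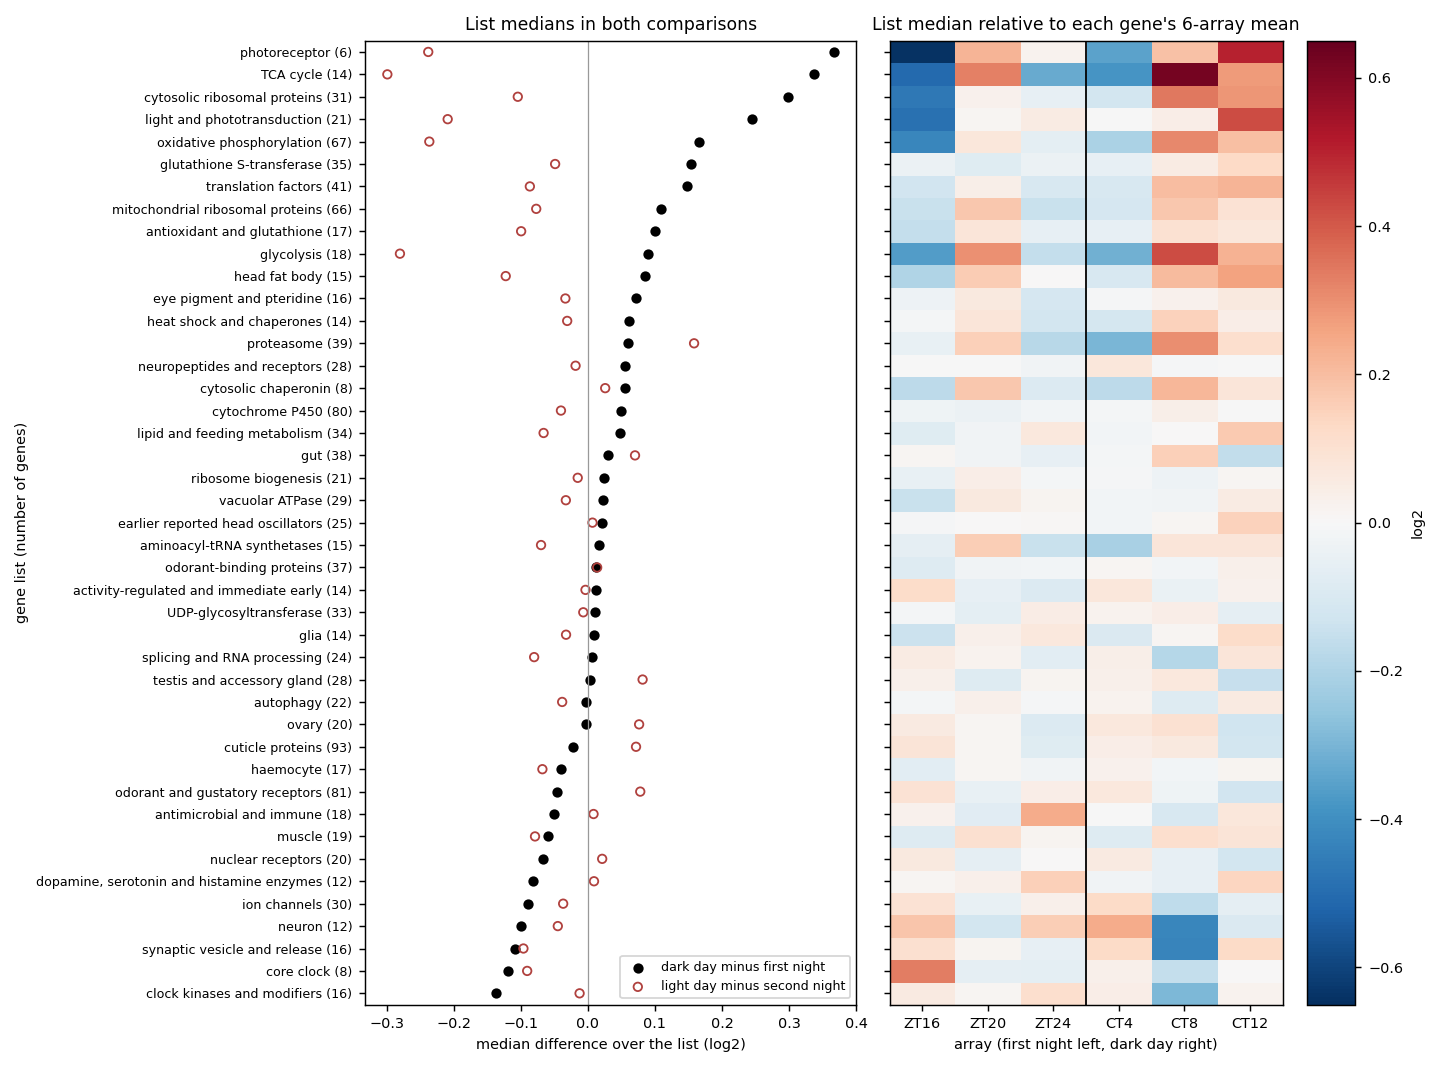
Left, the median difference (log2) of each of 43 gene lists, with the number of genes in brackets, for dark day minus first night (filled) and light day minus second night (open); right, each list's median relative to the genes' 6-array mean (log2, colour) in each array. Lists of photoreceptor, TCA cycle and ribosomal genes lie furthest to the right and are low in ZT16, and neuronal lists are low in CT8.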

How the data were processed

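Biotin-labelled cRNA from about 25 µg of total RNA per sample was measured on arrays, 1 array per time point, and the authors used RMA, which the submitters' processing notes name without a version. The deposited values are treated as log2, a base inferred from their range of 1.72 to 13.52 in the 6 arrays compared. There is no read depth, so the number of arrays sets the precision. Of 14010 probe sets, 44 controls include those behind the 3' excess (mean over actin, GAPDH and eIF-4a), and 13966 were tested. Names came from the platform annotation updated through RefSeq gene identifiers (12394 found): 12443 probe sets had 1 gene, 327 several and 1196 none here. Each of 10844 genes was read from its brightest probe set (12-array mean). Differences were fitted with limma 3.58.1 in R 4.3.3 (lmFit, eBayes, Benjamini-Hochberg over the tested probe sets, threshold 0.05) on the 6 arrays, and tested on simulated data. There 85% of 100 changes of 1 and 98% of 100 changes of 2 (log2) were recovered, with 10 false calls. The simulated noise was independent between probe sets, so the fit was not tested against shifts shared by many genes of an array.

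Named genes were all 8 core clock genes, and per list up to 3 genes of smallest unadjusted p in this comparison. Per direction, 12 genes of smallest p without overlap of groups and with a higher-group mean of at least 5 were added. The 5 largest differences without overlap and the 3 largest steps from ZT24 to CT4 were also taken per direction. The 43 lists (symbols and name patterns) and the members were chosen with earlier results of these data known, so their patterns are not independent support. Symbols not found among the genes were dropped from the lists. Lists were described by counts and medians, with no set test. Alternatives were all 12 arrays in 4 groups, quantile normalization again, 16 added on the linear scale, a mean of at least 5, an intensity trend, the 3' excess as a covariate, leaving out its 3 high arrays or each array, and the mean of a gene's probe sets. No coordinates or sequences were used.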

Additional observations from a re-analysis of the deposited data

How the results depend on the processing

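The count of genes past the adjusted threshold was 0 under all 14 alternatives, with smallest adjusted p between 0.7546 and 0.9999. Genes at an unadjusted p under 0.05, 59 higher and 59 lower in the dark day, became 120 and 177 with all 12 arrays in the fit. They were 28 and 18 among the 5253 genes with a mean of at least 5. With single arrays left out they ranged from 21 to 306 higher and from 33 to 210 lower; fewer arrays remain in these fits, and the cause of the rise without CT4 or ZT20 was not tested. Of 111 named genes 10 changed sign in at least 1 setting. Without ZT16, ZT24 and CT4, which leaves ZT20 alone in the night, the differences were 0.45 for vri, -0.0635 for cyc, -0.02 for aspr, 0.99 for CG8483 and 0.032 for Hex-A. With the 3' excess as a covariate CG8483 gave 0.13, with quantile normalization again RpL37A gave -0.0308, and with the mean of its probe sets cwo gave -0.22. With single arrays left out, differences ran from -0.3992 to 0.0158 for per, -0.0482 to 0.0383 for cyc, -0.5053 to 0.2055 for vri, -0.1023 to 0.1247 for cwo, -0.0937 to 0.9713 for CG10527, -0.2407 to 0.6003 for aspr, -0.0183 to 0.8987 for CG1648 and -0.7725 to 0.7065 for CG8483; the causes were not tested. Of 602 list medians under the alternatives 25 moved by more than the SD between arrays of a group. No paired analysis was possible because there was 1 array per time point. The labels give collection times and an experiment name that all 12 arrays share, which pairs no array with another.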
